A study of Arabidopsis thaliana with 12 samples.

Results

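Plastid ribosomal proteins were followed through 6 nuclear genes of Arabidopsis thaliana, chosen as genes of the plastid ribosome that the platform annotation gives as the single gene of a probe. AT1G64510 (S6) and AT3G13120 (S10) encode proteins of the small subunit, and AT4G01310 (L5), AT3G54210 (L17), AT5G65220 (L29) and AT1G29070 (L34) proteins of the large subunit. They are 6 of the 690 genes measured by a probe with 1 gene, and each had 1 such probe among the 3439 on the array. The samples were total RNA of the toc120 mutant (6 arrays) and of wild type, WT (6 arrays), both of the accession Columbia 0. The mutant is described as impaired in moving proteins through the outer membrane of the chloroplast. The sources used here give no allele, tissue, age, growth conditions or array type, and do not say whether arrays of a genotype came from separate plants, so the p-values measure only the spread between these arrays, which may be technical.

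The plastid ribosome is of the bacterial type and translates the messages of the plastid genome, among them those of the photosystem cores and of the large subunit of Rubisco. Part of its proteins are encoded in the plastid itself, and the others are encoded in the nucleus, made in the cytosol and imported through the TOC and TIC complexes of the chloroplast envelope. TOC120 is a receptor of the outer complex, so the products of all 6 genes are themselves cargo of plastid import. The comparison asks whether the transcripts of such cargo differ in level when the receptor is mutated.

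The values are the intensities the authors deposited, on a linear scale from 0 to 100. The median probe lay between 0.151 and 0.157 on the WT arrays and higher, between 0.188 and 0.278, on the toc120 arrays, and levels are therefore given after quantile normalisation, which gives every array the same distribution of values. Log2 changes are toc120 minus WT after adding 0.0261, the 5th percentile of the positive intensities, and the addition shrinks changes of dim probes. Arrays numbered 1 and 2, 3 and 4, or 5 and 6 within a genotype resembled each other (Spearman's rho across probes at least 0.952) more than its remaining arrays did (at most 0.946). The test of each gene is therefore given over the 12 arrays and over pair means, with neighbours averaged to leave 3 values per genotype. The mutated gene has no 1-gene probe, and the genotype labels were not checked against it.

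In toc120 the L29 transcript was 1.61-fold higher and the L5 transcript 1.4-fold lower over the 12 arrays, while S6, S10, L17 and L34 did not pass the test (limma, adjusted p threshold 0.05 over all probes). The 2 that passed, both of the large subunit, are to be read against the 46.1% of all probes that passed in the same fit, 21.4% higher and 24.8% lower in toc120. Over pair means 0 of the 6 passed by limma, against 31.5% of all probes. At an unadjusted p under 0.05 the pair means gave 1 of the 6 (L29), against 41.9% of all probes. The median log2 change was -0.16 over the 6 genes and 0 over all probes, with 3 genes above and 3 below 0. The balance depended on the scaling. As deposited 5 genes lay above 0 and 1 below (median 0.24, against 0.23 over all probes), where 2286 of 3439 probes lay above 0. With equal array medians 2 lay above and 4 below (median -0.26, against -0.041), where 1644 of 3439 probes lay above 0. The share called among the 6 genes was no higher than on the array as a whole in either fit. In bulk RNA such as this, fewer cells with a transcript and less transcript per cell cannot be told apart.

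**Figure D1:**
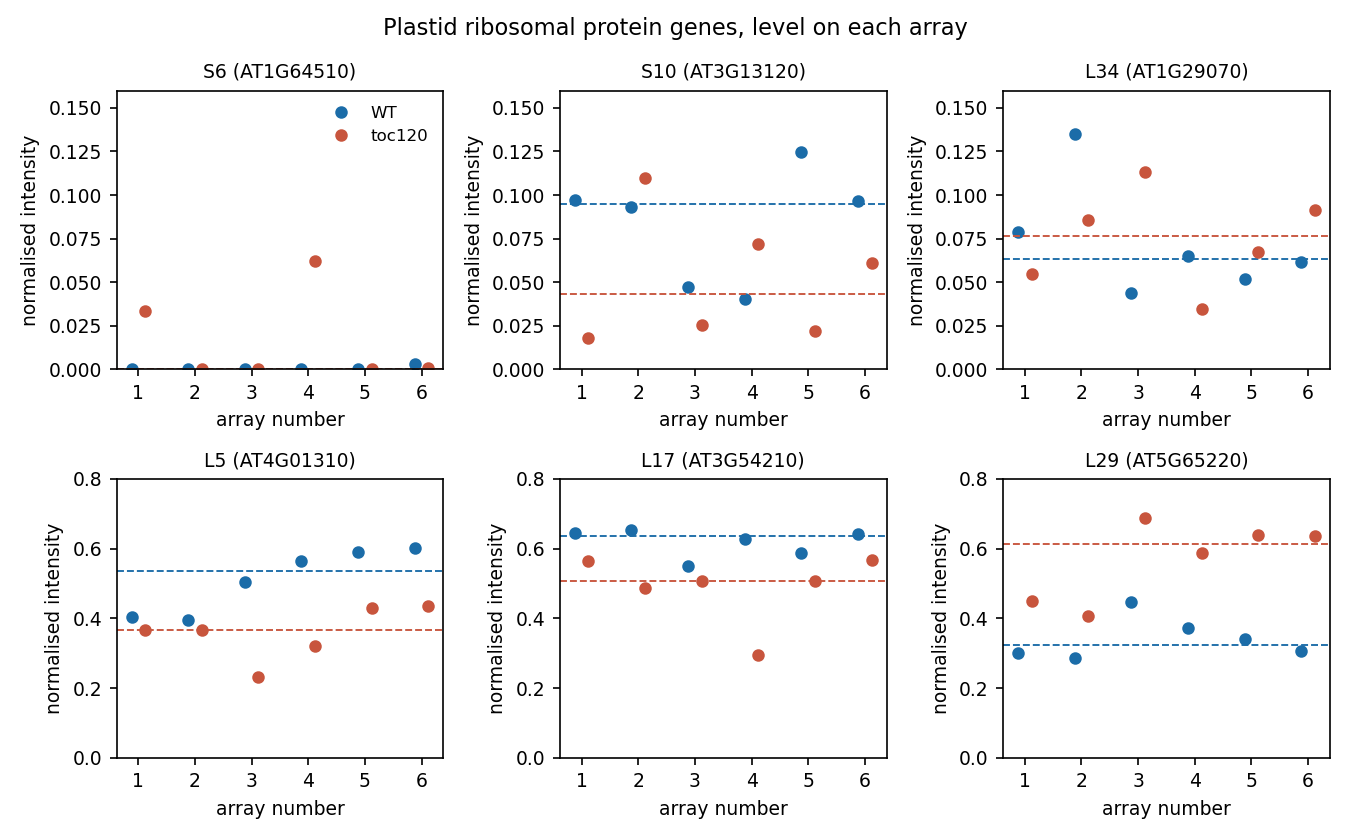
Quantile-normalised intensity (vertical axis, linear; the upper panels reach 0.16 and the lower ones 0.8) of the 6 genes on each array, by array number, in WT (blue) and toc120 (red); dashed lines are the medians of 6 arrays. L29 is higher in toc120 at each number, L5 and L17 are lower at each number, and S6 lies at or near 0 on most arrays.

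L29 sits, in the ribosome of Escherichia coli, beside the mouth of the tunnel through which the growing chain leaves. Its transcript had intensities of 0.285 at the lowest, 0.323 at the median and 0.448 at the highest on the WT arrays, and of 0.406, 0.613 and 0.689 on the toc120 arrays. The genotypes overlapped slightly (31% of all probes had no overlap), since toc120 2, the dimmest mutant array, lay below WT 3, the brightest of the wild type. The pair means were 0.292, 0.41 and 0.323 in WT and 0.428, 0.638 and 0.638 in toc120, which do not overlap (45.3% of all probes have pair means that do not). The mean was 0.342 ± 0.0613 in WT and 0.568 ± 0.121 in toc120 (SD, n = 3 pair means each).

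The log2 change of L29 was 0.68 (SE 0.15, 95% interval 0.36 to 1.01, limma adjusted p = 0.00257) over the 12 arrays. Over pair means the SE was 0.21 and the limma adjusted p was 0.0666 (0.0795 with equal array medians, 0.0414 as deposited), and with the number pair as a block, which compares toc120 and WT of the same numbers, the limma adjusted p was 0.0435 (28.5% of all probes passed in that fit). The difference between toc120 and WT arrays of equal number was positive at 6 of 6 numbers, with 0.47 as its lowest value on the log2 scale, as it was for 21.7% of all probes. In the intensities as deposited the change was 1.22 (SE 0.20), and the arrays then did not overlap at all, WT reaching 0.388 at most and toc120 starting at 0.432, which holds for 29.3% of all probes. Without arrays 5 and 6 of both genotypes the L29 call over the remaining 8 arrays was lost (log2 change 0.58, limma adjusted p = 0.0752).

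L5 binds the smallest rRNA of the large subunit in Escherichia coli. Its transcript had intensities of 0.396 at the lowest, 0.535 at the median and 0.603 at the highest on the WT arrays, and of 0.232, 0.366 and 0.436 on the toc120 arrays. The genotypes overlapped, WT 1 and WT 2 lying below toc120 5 and toc120 6. The pair means were 0.4, 0.535 and 0.597 in WT and 0.366, 0.277 and 0.433 in toc120, and they overlapped too.

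The mean was 0.511 ± 0.1 in WT and 0.359 ± 0.0784 in toc120 (SD, n = 3 pair means each), so that pair means within a genotype lay as far apart as the genotypes did. The log2 change of L5 was -0.49 (SE 0.16, 95% interval -0.84 to -0.14, limma adjusted p = 0.0263) with the 12 arrays. Over pair means L5 did not pass (SE 0.22, limma adjusted p = 0.179), nor with the number pair as a block (0.18) or, over the 12 arrays, with neighbouring numbers as a random block (0.0539). By number the difference was below 0 at 6 of 6 (24% of all probes), but its size went from -0.11 at number 2 to -1.04 at number 3. The direction rested on the scaling, the change being 0.076 as deposited, where 4 of 6 numbers were higher in toc120. The call over the arrays was also lost when toc120 4 (limma adjusted p = 0.0529), WT 4 (0.0557), WT 5 (0.0573) or WT 6 (0.0578) was left out, without numbers 3 and 4 of both genotypes (log2 change -0.27, 0.231) and without numbers 5 and 6 of both genotypes (0.0615).

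L17, an rRNA-binding protein of the large subunit, came close to the threshold. Its transcript had intensities of 0.549 at the lowest, 0.635 at the median and 0.653 at the highest on the WT arrays, and of 0.295, 0.507 and 0.569 on the toc120 arrays. The wild-type arrays were close to each other, and toc120 4 stood far below the remaining mutant arrays. The genotypes overlapped, WT 3 at 0.549 lying below toc120 1 and toc120 6. The pair means, 0.648, 0.589 and 0.614 in WT and 0.527, 0.402 and 0.538 in toc120, did not overlap, as for 45.3% of all probes.

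The log2 change of L17 was -0.35 (SE 0.14, 95% interval -0.65 to -0.047, limma adjusted p = 0.0579; over pair means 0.134). Without toc120 4 the change was smaller, -0.22, but so was the SE, 0.059, and it passed (limma adjusted p = 0.012). It also passed without toc120 1 (0.0443) or toc120 6 (0.0436), and without numbers 3 and 4 of both genotypes (0.025). Further passes came with equal array medians (0.0351) and with 0.24, the median of the positive intensities, as the added constant (0.0459). Among only the probes above 0 on all arrays it passed as well (0.0499). Together these were 7 of 26 alternatives. L17 did not pass with neighbouring numbers as a random block (limma adjusted p = 0.21), the number pair as a block (0.114) or the array number as a block (0.0785). Nor did it pass with any single WT array left out (0.0622 to 0.103). As for L5, the difference was below 0 at 6 of 6 numbers after quantile normalisation and turned to 0.16 as deposited, where 5 of 6 numbers were higher in toc120. L5 and L17 thus had values of the same sign under each scaling, lower in toc120 after quantile normalisation or with equal array medians and slightly higher as deposited.

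**Figure D2:**
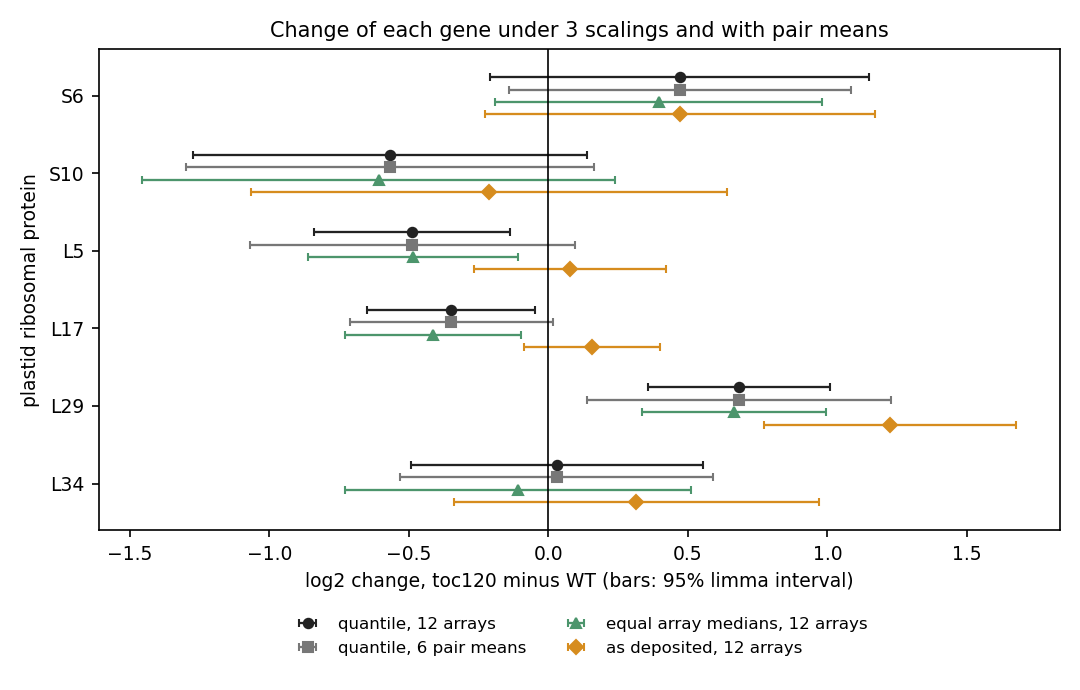
Log2 change (horizontal axis, toc120 minus WT) of the 6 genes with 95% limma intervals, over 12 arrays after quantile normalisation (black circles), over pair means (grey squares), with equal array medians (green triangles) and as deposited (orange diamonds). L29 lies to the right of 0 in all 4; L5 and L17 lie to the left of 0 in all but the deposited values.

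The scaling also shifted the typical probe. As deposited the median log2 change over the whole table was 0.23, and L29 at 1.22 stood above it while L5 at 0.076 and L17 at 0.16 stood below it. With equal array medians the median was -0.041, against 0.66 for L29, -0.49 for L5 and -0.41 for L17. After quantile normalisation it was 0, against 0.68, -0.49 and -0.35 for the same genes. With equal array medians 3 of the 6 genes passed over the 12 arrays, L29 higher and L5 and L17 lower, where 46.2% of all probes did, 19.1% higher and 27.1% lower. As deposited 1 passed, L29, where 45.5% of all probes did, 33.8% higher and 11.6% lower.

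A ratio of 2 probes on the same array does not depend on a scale factor of that array. It shows whether the probes changed unequally, not which of them changed. A difference between arrays that is not a scale factor, such as an added amount, would not cancel. The array medians were higher in toc120, but the array totals overlapped (2641 to 3553 in WT, 2688 to 3686 in toc120). Whether a scale factor describes the arrays was not tested. The ratio of the deposited L5 to L29 intensities was 1.16 at the lowest, 1.53 at the median and 2 at the highest on the WT arrays, and 0.354, 0.744 and 0.907 on the toc120 arrays. All mutant arrays lay below all wild-type arrays, and the geometric mean was 2.33-fold lower in toc120. The ratio of L17 to L29 separated the genotypes in the same way, with 1.29, 2.03 and 2.38 on the WT arrays, 0.513, 0.881 and 1.22 on the toc120 arrays and a geometric mean 2.2-fold lower in toc120.

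The ratio of L5 to L17 overlapped widely, from 0.58 to 1.01 in WT and from 0.463 to 1.09 in toc120, and its geometric means differed 1.06-fold. Of the 10 pairs formed by the 5 genes above 0 on all arrays, 2 separated the genotypes, L5 to L29 and L17 to L29, against 34.3% of all pairs of 1-gene probes above 0 on all arrays. Over pair means S10 to L34 separated as well, making 3 of 10 against 50.7%. The 10 pairs share 5 genes and are not independent.

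**Figure D3:**
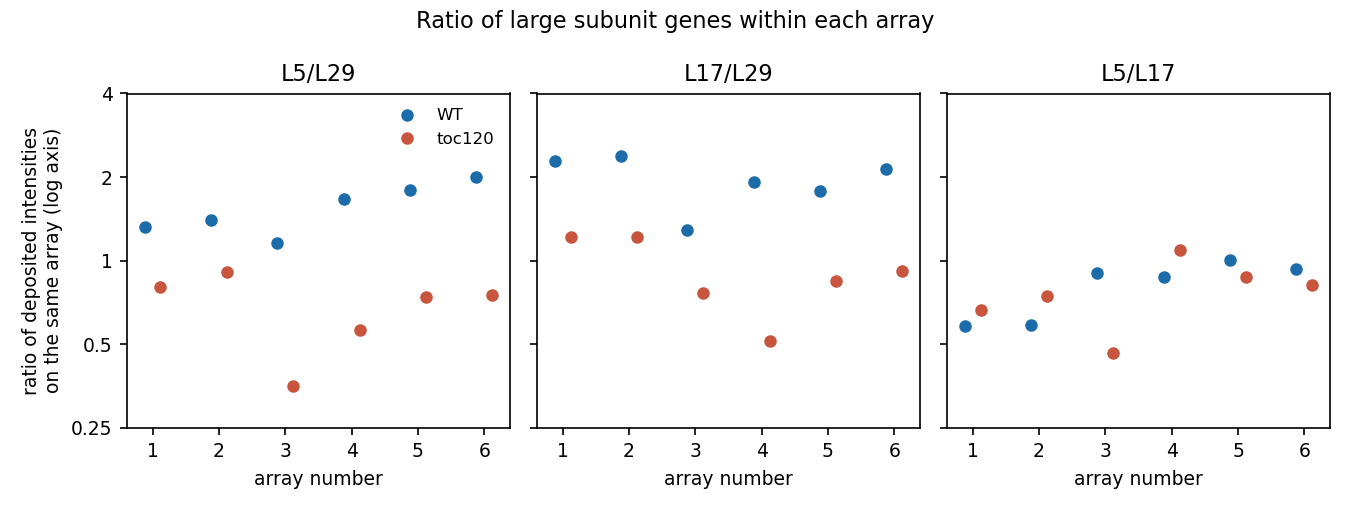
Ratio of deposited intensities of 2 large subunit genes on the same array (vertical log axis, no unit), by array number, in WT (blue) and toc120 (red). For L5/L29 and L17/L29 each toc120 array lies below all WT arrays; for L5/L17 the genotypes overlap.

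L34 is a small rRNA-binding protein of the large subunit in Escherichia coli. Its probe was below the median probe of the array on all 12 arrays, with intensities of 0.044 at the lowest, 0.0634 at the median and 0.135 at the highest on the WT arrays and of 0.0346, 0.0765 and 0.113 on the toc120 arrays. The genotypes overlapped almost wholly. The log2 change was 0.030 (SE 0.24, 95% interval -0.49 to 0.55, limma adjusted p = 0.971, over pair means also 0.971), and 3 of 6 numbers were higher and 3 lower in toc120. Its sign changed with the scaling and with the arrays left out, so L34 has no settled direction.

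Of the small subunit, only S10 was measured above 0 on every array. In Escherichia coli S10 is a protein of the small subunit that also takes part in transcription antitermination. Its probe too was below the median probe on all 12 arrays, with intensities of 0.0405 at the lowest, 0.0948 at the median and 0.125 at the highest in WT and of 0.0178, 0.0431 and 0.11 in toc120. The mutant had the lower median, but toc120 2 exceeded all WT arrays except WT 5. The log2 change was -0.57 (SE 0.32, 95% interval -1.27 to 0.14, limma adjusted p = 0.18; over pair means 0.207), with 4 of 6 numbers lower in toc120. The size of the change varied with the processing, being -0.21 as deposited and -0.15 or -0.81 with 0.24 or 0.00509 as the added constant.

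Neighbouring arrays disagreed more for S10 than for the other genes measured on all arrays, with a median absolute log2 difference of 0.58 over the 6 neighbour pairs, against 0.43 for L34, 0.17 for L17, 0.14 for L29, 0.031 for L5 and 0.17 for the typical probe. In toc120 this followed the numbering, the odd arrays being at 0.0178, 0.0254 and 0.0218 and the even ones at 0.11, 0.0722 and 0.0607. In WT the odd arrays were instead the higher ones of each pair, by smaller steps, at 0.0973, 0.0474 and 0.125 against 0.0933, 0.0405 and 0.0964. This pattern was noticed after the values were seen and was not tested.

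S6, a small subunit protein that binds rRNA in Escherichia coli, was listed at 0 on 5 of 6 WT arrays and 3 of 6 toc120 arrays. The values above 0 were 0.00305 on WT 6 and 0.0335, 0.0624 and 0.000599 on toc120 1, toc120 4 and toc120 6. Only toc120 1 and toc120 4 exceeded the added constant of 0.0261, and neither neighbour, toc120 2 or toc120 3, was above 0. The log2 change, 0.47 (SE 0.31, limma adjusted p = 0.246, over pair means 0.212), therefore rests on 2 arrays. Without toc120 4 it was 0.22, and it went from 0.084 to 1.02 with a larger (0.24) or a smaller (0.00509) added constant.

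Set side by side, 0 of the 2 small subunit genes and 2 of the 4 large subunit genes passed over the 12 arrays, where 46.1% of all probes did. Of the latter, 1 was higher and 1 lower in toc120. Over pair means 0 genes of either subunit passed, against 31.5% of all probes. The changes ran from -0.57 to 0.47 in the small and from -0.49 to 0.68 in the large subunit, so after quantile normalisation neither subunit had a common direction. As deposited, all 4 large subunit genes were above 0, from 0.076 to 1.22, as were 2286 of 3439 probes. Their median was 0.24, against 0.23 over all probes. In that fit 1 of them passed, where 45.5% of all probes did. No difference between subunits was tested, because genes are not replicates of a subunit.

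**Figure D4:**
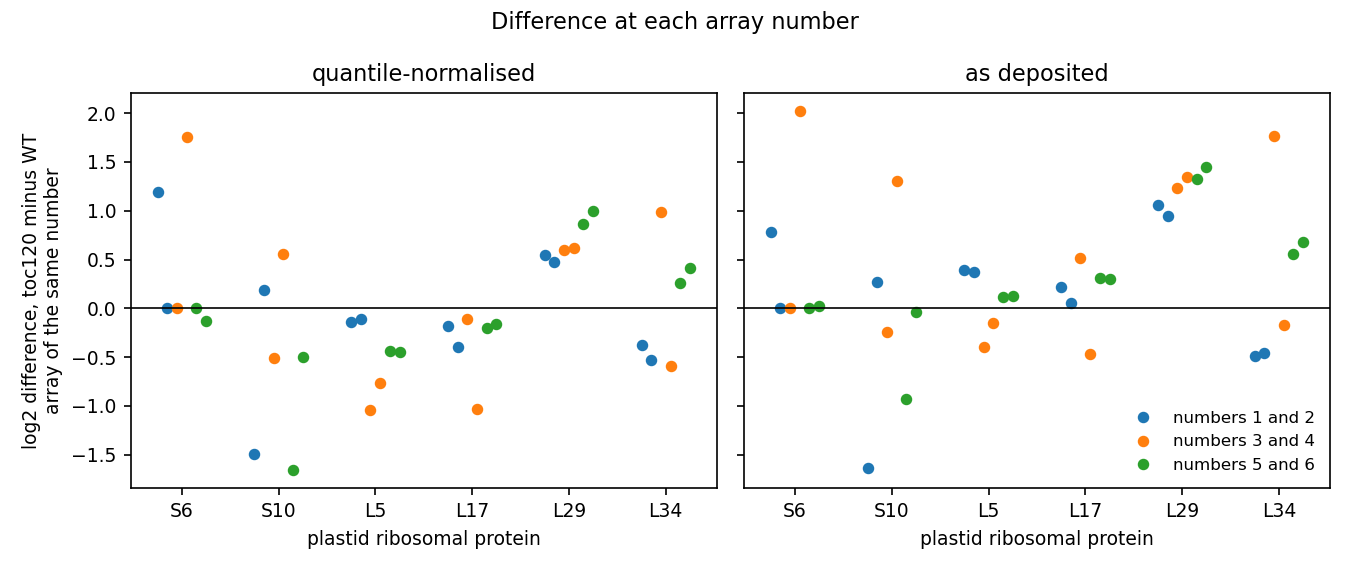
Log2 difference between the toc120 and WT arrays of the same number (vertical axis) for the 6 genes, after quantile normalisation (left) and as deposited (right); each point is a number and colours mark neighbouring numbers. The 6 points of L29 lie above 0 in both panels. All 6 points of L5 and of L17 lie below 0 on the left, but on the right most lie above 0.

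Profiles over the 12 arrays were compared by the mean absolute difference between centred log2 values. It is small where genes go up and down alike, and also where both vary little. For each gene 493 other 1-gene probes above 0 on all arrays were ranked. Nearest to L29 were CML41, a calmodulin-like protein (mean absolute difference 0.13), AT2G15440 (0.17) and AT1G18060 (0.18). These 3 had log2 changes of 0.72, 0.77 and 0.64, all passing over the 12 arrays (limma adjusted p = 0.000608, 3.22e-06 and 0.0111), as did 46.1% of all probes. AT1G18060 did not pass over pair means (0.132). Changes like that of L29 follow from the ranking, since the profiles include the genotype difference. The nearest to L17 were AT2G46050 (0.12), PSBY, a small photosystem II subunit (0.14), and ILA, a HEAT repeat protein (0.15), with log2 changes of -0.29, -0.33 and -0.42.

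L5 was nearest to AT2G04790 (0.13), AT2G19870 (0.16) and AT3G16310 (0.17). The neighbours of the dim genes were less close. For L34 they were AT2G17670 (0.20), AT2G21960 (0.22) and SIRB, the ferrochelatase of sirohaem synthesis (0.26). For S10 they were AT3G55070 (0.31), AT2G04700, a subunit of ferredoxin-thioredoxin reductase (0.35), and AT5G05330 (0.35).

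None of the 5 genes above 0 on all arrays was among the 3 nearest of another. With only 3 places among 493 candidates, this would be likely for genes of any kind. The closest approach was L17, which ranked 27 of 493 for L34 (0.32) and 52 of 493 for L5 (0.27). L29 ranked 334 for L5 and 311 for L17. The likeness is a description of these arrays, in which nearest profiles share the genotype difference and the array numbers.

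The 6 genes are a small part of their pathway. Of 41 nuclear genes listed for the plastid ribosome, 2 of 14 of the small and 4 of 27 of the large subunit had a 1-gene probe, and 0 of the rest were found on probes with several genes. Of 10 plastid translation factors 0 had a 1-gene probe and 3 lay only on shared probes. A search for the words ribosomal protein in gene symbols and synonyms gave 44 further genes, of which 0 were measured. Gene descriptions were not searched, so ribosomal protein genes named otherwise are not counted. The 6 genes lie on chromosomes 1 (S6 and L34), 3 (S10 and L17), 4 (L5) and 5 (L29).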

How the data were processed

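The series matrix holds probe intensities deposited by the authors, linear from 0 to 100, for 3439 probes on 12 arrays; the sources used here do not state how they were background-corrected or scaled. Probes were named from the platform annotation: 692 have 1 gene, 870 several and 1877 none, and 691 of the 1-gene probes matched the RefSeq gene table. No coordinates are given, as the build behind the probes is not known. The files hold no background values, so the number of arrays limits the precision. Between 11.8% and 17.3% of an array's values are exactly 0.

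Intensities were quantile-normalised and compared as log2(value + 0.0261) with limma 3.58.1 (lmFit, eBayes, two-sided) in R 4.3.3. The p-values were adjusted by Benjamini-Hochberg across the whole table. The procedure was also run on simulated data to check the sign and size of the changes, which does not test the p-values. Figures used matplotlib 3.10.9. Deviations from the genotype mean correlated across probes between toc120 and WT arrays of equal number (r 0.217 to 0.348), and 12 of 12 arrays matched best with their own number, so numbers appear to pair the samples; this comes from the data, not the labels. The blocked fits were alternatives. The genes, lists and tests were chosen with earlier results of these data known. Genes named beside the 6 are the 3 with the nearest profile to each gene above 0 on at least 9 arrays. A planned motif search in promoters was not run, as no promoter sequences were used here.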

Additional observations from a re-analysis of the deposited data

Results flagged for a closer look

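In 2 of the 12 groups of 6 arrays a single array was marked by Dixon's ratio of gap to range at the 95% level, where chance marks about 1 in 20 groups. For L17, toc120 4 was at 0.295, while the remaining mutant arrays lay between 0.489 and 0.569. For S6, WT 6 was at 0.00305, a value below the added constant, with the other WT arrays listed at 0. With all the others at 0 the ratio is 1 for any value above 0. The share expected by chance therefore does not apply to the S6 mark.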

How the results depend on the processing

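Over all probes 1587 passed on the 12 arrays, with 899 for pair means as deposited, 912 for pair means with equal array medians, 979 for pair means blocked by number pair, and 1294 to 1589 with arrays left out. The share of calls that were higher in toc120 was 46.3% after quantile normalisation, 41.3% with equal array medians and 74.4% in the deposited values. Of the 6 genes 2 passed. The count was 3 (L29, L5 and L17) with equal array medians, where 1588 of 3439 probes passed. It was the same 3 with 0.24 as the added constant, where 1604 of 3439 probes passed. Among only the probes above 0 on all arrays, where S6 dropped out, the same 3 of 5 genes passed, against 1488 of 2512 probes. As deposited the count was 1 (L29), and with neighbours as a random block also 1 (L29, with 1288 of all probes). Over pair means it was 0, and 0 with equal array medians too. Pair means as deposited or blocked by number pair gave 1 (L29). With arrays left out the count was 0 to 3. The replicate block by number changed no call of the 6 genes (2 passed, and 1688 of all probes). L29 was positive in all 26 alternatives (0.47 to 1.22). L5 turned to 0.076 and L17 to 0.16 as deposited, over arrays and pair means alike. L34 turned to -0.11 with equal array medians, -0.058 without numbers 3 and 4 and -0.14 without numbers 5 and 6 of both genotypes, and ranged from -0.073 to 0.18 with 1 array left out. S10 (-0.81 to -0.15) and S6 (0.084 to 1.02) kept their sign and passed in 0 alternatives, but their size moved by over 1.5 times. Separated ratios numbered 2 over arrays and 3 over pair means. The causes were not tested.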
